A study of Mus musculus with 6 samples.

Results

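Slc38a10, Ccdc134, Exog, Cthrc1 and Tnfrsf22 are 5 genes that were chosen by their lower signal on the arrays labelled LIXs than on those labelled WT, after both 24 h and 48 h of doxycycline (Dox). They are 5 of 19057 genes with a named probe, and 5 of the 40 genes that were at least 2-fold lower at both times. Because those values chose the genes, the difference between LIXs and WT is given for them as a description with no test. Liver RNA of FVB mice aged 10 weeks was hybridised to 6 Illumina bead arrays. LIXs on Dox for 24 h was set beside WT on Dox for 24 h, and LIXs on Dox for 48 h beside WT on Dox for 48 h. WT livers 2 h into refeeding and WT livers after a 24 h fast completed the set, and each array held 1 pool. LIXs mice carry a Dox-induced TRE-Xbp1s transgene. All 4 Dox groups, WT included, ate Dox chow and went without food for 6 h before the liver was taken. Neither the size of a pool nor the promoter behind the Dox-dependent activator is known here.

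Xbp1s is the spliced, active form of a transcription factor of the unfolded protein response. When unfolded proteins build up in the endoplasmic reticulum (ER), the sensor IRE1 splices the Xbp1 transcript, and the protein made from it switches on genes for folding, degradation and transport of secreted proteins. The liver uses this response heavily because hepatocytes secrete most plasma proteins. The 5 genes work in different places. Ccdc134 encodes a coiled-coil protein of the secretory pathway that binds the ER chaperone GRP94 in human cells. Slc38a10 belongs to a family of transporters of neutral amino acids. Exog encodes a mitochondrial nuclease that trims DNA ends. Cthrc1 encodes a secreted glycoprotein made by activated fibroblasts and stellate cells. Tnfrsf22 encodes a mouse receptor that binds the death ligand TRAIL without passing on a death signal.

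Promoters are shown for Slc38a10, Ccdc134 and Exog because the ER stress factors are known to bind short boxes near start sites. The shared direction of the 5 genes on the Dox arrays follows from how they were chosen and is no ground for a shared box. The windows are RefSeq's, build GRCm38.p6, each of 300 bases around an annotated start, at chr11:120151302-120151601 (minus strand), chr15:82127725-82128024 (plus strand) and chr9:119444710-119445009 (plus strand). Of the 5 genes 3 matched the promoter table by symbol. Capitals mark each CCACG and CCAAT box on either strand, so that a box on the opposite strand reads CGTGG or ATTGG.
Slc38a10: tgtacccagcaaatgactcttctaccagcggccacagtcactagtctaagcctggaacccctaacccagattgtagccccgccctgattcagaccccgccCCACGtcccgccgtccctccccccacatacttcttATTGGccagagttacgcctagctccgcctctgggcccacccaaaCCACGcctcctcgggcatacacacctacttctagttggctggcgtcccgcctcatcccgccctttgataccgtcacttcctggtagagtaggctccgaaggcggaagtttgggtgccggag
Ccdc134: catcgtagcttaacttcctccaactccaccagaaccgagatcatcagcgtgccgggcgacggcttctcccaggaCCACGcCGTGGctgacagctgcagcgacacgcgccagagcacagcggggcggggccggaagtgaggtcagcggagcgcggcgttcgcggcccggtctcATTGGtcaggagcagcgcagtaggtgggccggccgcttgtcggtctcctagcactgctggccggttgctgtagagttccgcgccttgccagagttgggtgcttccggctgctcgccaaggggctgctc
Exog: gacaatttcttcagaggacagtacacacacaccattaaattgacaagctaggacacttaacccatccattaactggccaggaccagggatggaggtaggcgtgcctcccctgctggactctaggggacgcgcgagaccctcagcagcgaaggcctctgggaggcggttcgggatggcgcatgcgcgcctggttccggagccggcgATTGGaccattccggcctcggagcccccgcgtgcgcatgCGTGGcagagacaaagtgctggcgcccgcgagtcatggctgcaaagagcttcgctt

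All 3 windows held at least 1 CCACG and 1 CCAAT box, against 32.8% and 37.4% of all 32851 promoter windows of that length. These shares are for each box alone, and the share of windows with both was not counted. No enrichment is read from 3 windows. In Slc38a10 a CCACG box began 150 bases before the start and was the longer CCACGT, which 8.31% of all windows held. In Ccdc134, a CCACG box and its mirror image lay 1 base apart, and an overlapping second window of the gene held the same boxes. In Exog the CCACG box ended 2 bases before the start. The unfolded protein response element TGACGTGG, found in 0.676% of all windows, had 0 matches in the 3 genes. The ER stress response element, a CCAAT and a CCACG box with 9 bases between them, was found in 0.119% of windows, and its second form, ATTGG and CCACG 1 base apart, in 0.0365%. Both had 0 matches in the 3 genes. A match describes the letters of a window and does not show that a factor binds there.

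The detection level was an intensity of 129, and between 7471 and 7547 named genes exceeded it per array. The brightest probe of each of the 5 genes was above it on all 6 arrays. Of 6 hepatocyte markers 5 were detected on all arrays, and their background-corrected sum, mostly Apoa1 and Ttr, lay between 65463 and 98655 per array. The Alb probe read between 130 and 163, just above the detection level, and Tat was below it. Pancreatic acinar markers, 7 of 8 detected (Pnlip has no named probe), summed to 29665 on the array labelled LIXs at 24 h, against 11337 on WT at 24 h. The other 4 arrays lay between 10785 and 12427. Most of each sum is Amy2a5, which read 19880 on LIXs and 10521 on WT at 24 h, and between 10276 and 10962 on the other 4 arrays. Amy2a5 differed by 0.92 on the log2 scale at 24 h and by 0 at 48 h. The genes Clps, Pnliprp1, Try4, Ctrb1, Cpb1 and Cela2a differed by between 3.03 and 3.64 on the log2 scale at 24 h, and by between 0.05 and 0.63 at 48 h. Cholangiocyte markers, 4 of 6 detected with Krt19 and Epcam below the level, summed to 2382 and 2496 on LIXs, against 3967 and 3772 on WT at 24 h and 48 h. On refed and fasted arrays their sum was 2717 and 1637. That sum is mostly Krt8 and Krt18, keratins that hepatocytes also make. Sox9, detected on all 6 arrays, differed by -0.37 and -0.33, and all 3 tested cholangiocyte markers averaged below 0. Krt7 passed the level only on the refed and fasted arrays, so its differences of 0.44 and 0.13 come from signals below the level. Stellate cell markers, 7 of 8 detected (not Pdgfrb), summed to 5296 and 5292 on LIXs, against 4148 and 4377 on WT. That sum is mostly Dcn and Reln. Des differed the other way, by -0.47 and -0.51, and Acta2 by -0.13 and -0.25, and the median of the tested stellate markers was 0.41 at 24 h and -0.03 at 48 h. Kupffer cell, sinusoidal endothelial and erythroid marker sums were higher on LIXs than WT at both times, with Cd5l and Kdr below the level and no named probe for Hbb-b1. The Kupffer sum is mostly Vsig4 and Clec4f, and the endothelial sum mostly Clec4g. Of 5 tested markers each, 2 Kupffer and 1 endothelial averaged below 0. At 24 h and 48 h Marco differed by -0.10 and -1.03, and Adgre1 by 0.10 and -0.43. Pecam1 differed by -0.38 and 0.03, and Lyve1 by 0.69 and -0.03. Neutrophil sums ran from 157 to 292 outside the refed array, which read 1470. That refed sum is mostly S100a8, which read 1436 there. Between refed and fasted WT, S100a9 differed by 2.52, Elane by 0.74, Mpo by 0.64 and Ngp by -0.95. Between LIXs and WT, Mpo differed by -1.16 at 24 h and -0.98 at 48 h (averaged -1.07). Mpo was detected only on the 2 WT Dox arrays, with 145 and 143, and read 111 and 116 on LIXs. It could enter the limma test only through the arrays where it is high, so no p-value is read for it. Of the lymphocyte markers 2 of 5, and of the adipocyte markers 1 of 4, were detected. The part of these cell types in the results below was not tested. In whole-liver RNA, fewer cells of a type and less RNA per cell cannot be told apart.

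Xbp1 itself read 4537 on LIXs and 4259 on WT at 24 h, and 4350 on LIXs and 5210 on WT at 48 h. Its averaged log2 difference was -0.09 ± 0.22 (SE, limma adjusted p = 0.836). The gene has 1 probe, whose place relative to the transgene is unknown here, so the genotype labels have no check from it. LIXs and WT stand below for the arrays so labelled. Of 16 known Xbp1s targets tested with limma, 6 were lower with the LIXs label and 0 higher, against 4.47% and 4.33% of 7652 genes. That direction is opposite to the known action of Xbp1s. The calls are fragile, and with the mean of all probes of a gene 0 of the targets passed. Whether the labels were exchanged was not tested. An exchange would change the sign of each difference between LIXs and WT and keep its size.

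The deposited intensity of Ccdc134 was 324 on LIXs and 1155 on WT at 24 h, and 434 on LIXs and 949 on WT at 48 h. The refed and fasted WT arrays read 328 and 529. LIXs at 24 h and the refed array lay together at the low end, with LIXs at 48 h between them and the fasted array. Both WT Dox arrays stood above all others. After background correction the log2 difference between LIXs and WT was -2.20 at 24 h, or 4.61-fold lower, and -1.33 at 48 h, or 2.51-fold lower.

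Slc38a10 read 133 on LIXs and 302 on WT at 24 h, and 207 on LIXs and 368 on WT at 48 h, with 184 on the refed and 243 on the fasted array. The low value at 24 h was barely above the detection level. The log2 difference was -2.39 at 24 h and -1.28 at 48 h. Between the LIXs arrays, 48 h was higher than 24 h by 1.52 on the log2 scale.

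Exog read 163 on LIXs and 338 on WT at 24 h, and 177 on LIXs and 290 on WT at 48 h. Its lowest value was on the refed array, 150, and the fasted array read 218. The log2 differences between LIXs and WT were -1.81 at 24 h and -1.23 at 48 h.

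Cthrc1 read 157 on LIXs and 290 on WT at 24 h, and 213 on LIXs and 405 on WT at 48 h. The refed array matched the lower LIXs array with 156, and the fasted array read 206. The log2 differences were -1.63 and -1.39 at 24 h and 48 h. The stellate marker values given above moved in both directions, and their part in the Cthrc1 values was not tested.

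Tnfrsf22 read 187 on LIXs and 345 on WT at 24 h, and 248 on LIXs and 451 on WT at 48 h. It was nearly equal on the refed and fasted arrays, at 247 and 243, which is also the level of LIXs at 48 h. The log2 differences were -1.43 and -1.21.

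**Figure D1:**
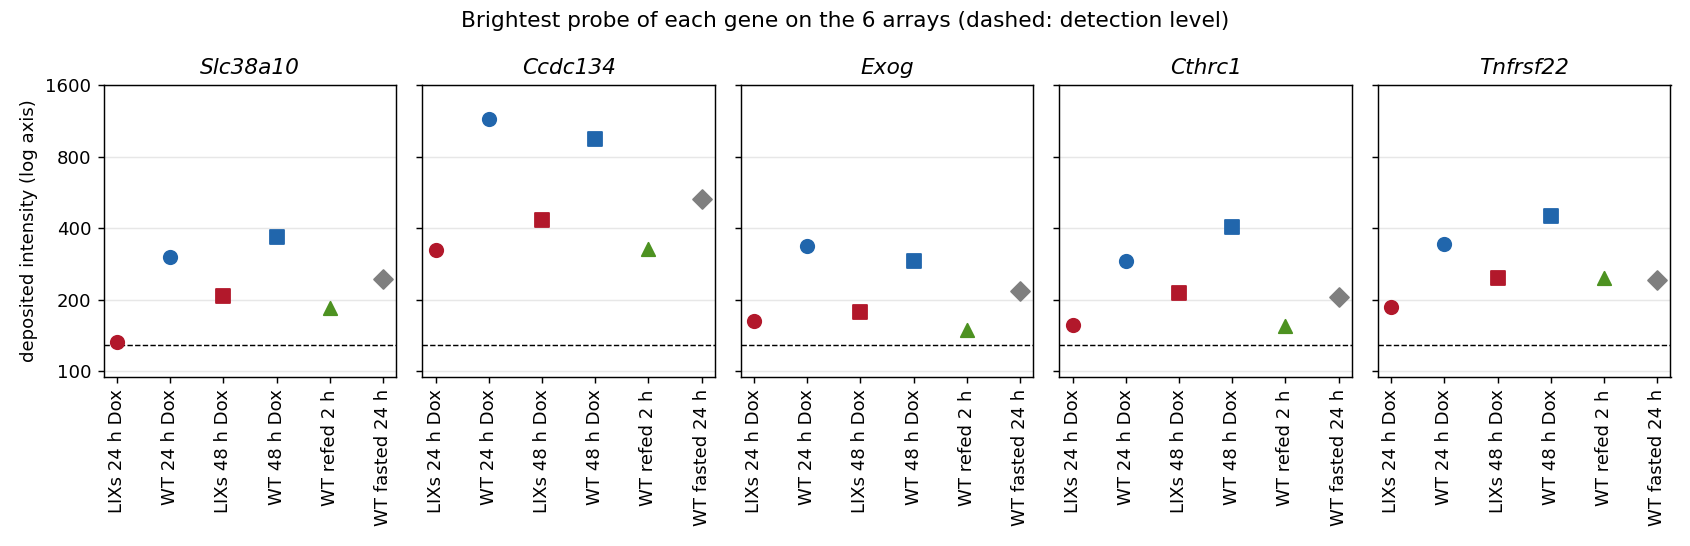
Deposited intensity (log axis) of the brightest probe of each gene on the 6 arrays, 1 point per array, with LIXs in red, WT on Dox in blue, WT refed in green and WT fasted in grey, and the detection level of 129 as a dashed line. The blue points are the 2 highest in each of the 5 panels.

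All 5 genes were at least 2-fold lower at 24 h, where 4.91% of 8040 genes were, and at 48 h, where 2.47% of 8105 were. At both times 0.534% of 7486 genes were 2-fold lower. These shares describe how far out the chosen genes lie, and nothing more is read from them because the same contrast chose the genes. The median over the 5 genes was -1.81 at 24 h and -1.28 at 48 h, against 0.02 and 0.00 over all genes. The difference was smaller at 48 h for each of the 5, by between 0.21 for Tnfrsf22 and 1.12 for Slc38a10. For Cthrc1 this order turned without background correction, at -0.89 and -0.93, and for Cthrc1 and Tnfrsf22 it turned with the mean of all probes. In the order of the averaged difference, Slc38a10 stood at place 2, Ccdc134 at 5, Exog at 9, Cthrc1 at 10 and Tnfrsf22 at 38 from the lowest. Next to them stood Ica1 at -1.91, Bhlha15 at -1.81, Kdelr3 at -1.77 and Aptx at -1.61, and around Tnfrsf22, at -1.32, both Dtx2 and Arfgap3 at -1.32. Other genes next to them were Rusc1 at -1.54 and 1810062G17Rik at -1.50. The 5 are therefore examples from the lower end and not its full extent.

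The size of these differences depended on the background step and on the probe rule. On the deposited intensities without correction, the difference at 24 h was -1.84 for Ccdc134, -1.18 for Slc38a10, -1.05 for Exog, -0.89 for Cthrc1 and -0.88 for Tnfrsf22. At 48 h it was -1.13 for Ccdc134 and between -0.93 and -0.71 for the others. All signs were kept, while 3 of 5 genes at 24 h and 1 of 5 at 48 h, Ccdc134, were still at least 2-fold lower. With the mean of all probes of a gene, which takes in probes below the detection level, the difference at 24 h was -1.10 for Exog, -0.99 for Slc38a10, -0.69 for Cthrc1 and -0.36 for Tnfrsf22. At 48 h it was -0.96 for Exog, -0.71 for Cthrc1, -0.42 for Tnfrsf22 and -0.37 for Slc38a10.

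**Figure D2:**
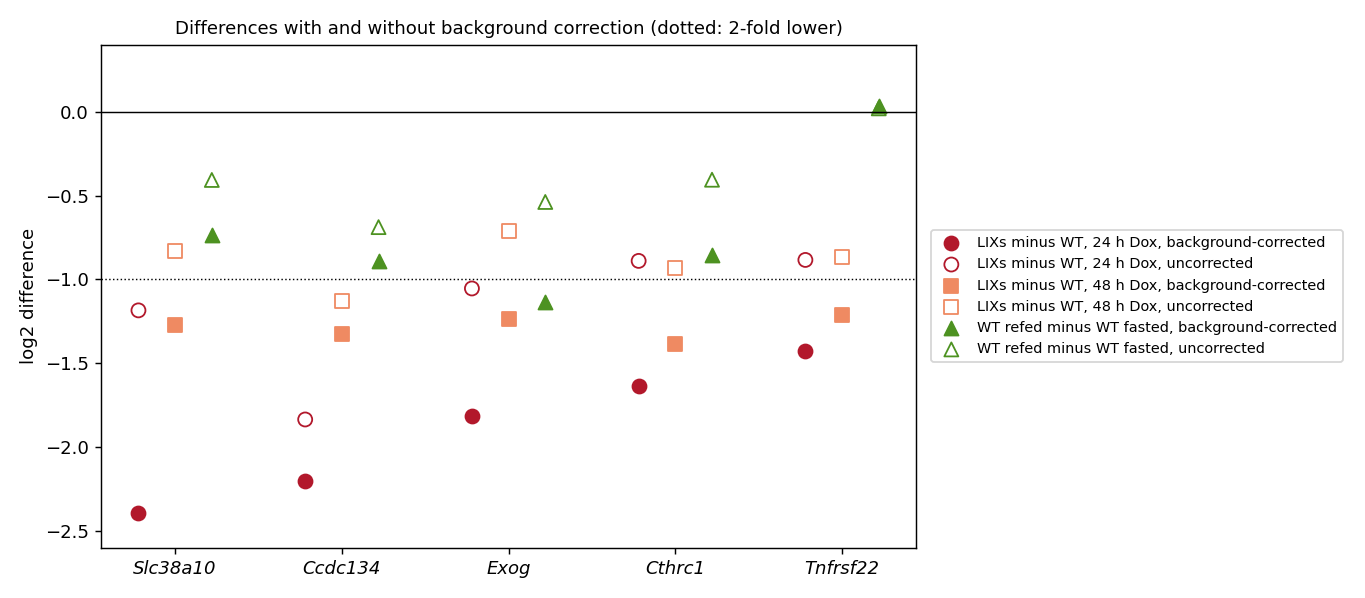
Log2 differences of the brightest probes: LIXs minus WT at 24 h (circles) and at 48 h (squares), and WT refed minus WT fasted (triangles), filled after background correction and open without it. The dotted line is 2-fold lower, and the filled circles and squares of all 5 genes lie below it.

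The 5 genes have 14 probes, and the other 9 gave less signal. Of these 9, 4 were below the detection level on all arrays, 1 for Cthrc1 and 3 for Tnfrsf22. Of the 5 that were detected on at least 1 array, 4 were lower on LIXs at both times, where 34.2% of 7486 genes were. These probes belong to genes chosen by that contrast, and the second Exog probe passed the level only on WT at 24 h. The count is therefore a description. The third Slc38a10 probe, annotated to the same RefSeq transcript as the brightest, read 138 on LIXs and 212 on WT at 24 h, and 135 on LIXs and 147 on WT at 48 h. On refed and fasted arrays it read 117 and 114, below the detection level. The second probe of Slc38a10 read 150 and 143 on LIXs, against 173 and 150 on WT at 24 h and 48 h. Its probe numbered 4 went the other way, with log2 differences of 0.35 and 0.36, and reached the detection level on 1 array. Which transcripts of Slc38a10 each probe reports was not tested. The second Exog probe read 121 on LIXs and 131 on WT at 24 h, and 107 on LIXs and 127 on WT at 48 h, so it passed the level on 1 array. The second Tnfrsf22 probe read 131 and 124 on LIXs, against 148 and 154 on WT. Ccdc134 has a single probe, so it had no second reading.

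**Figure D3:**
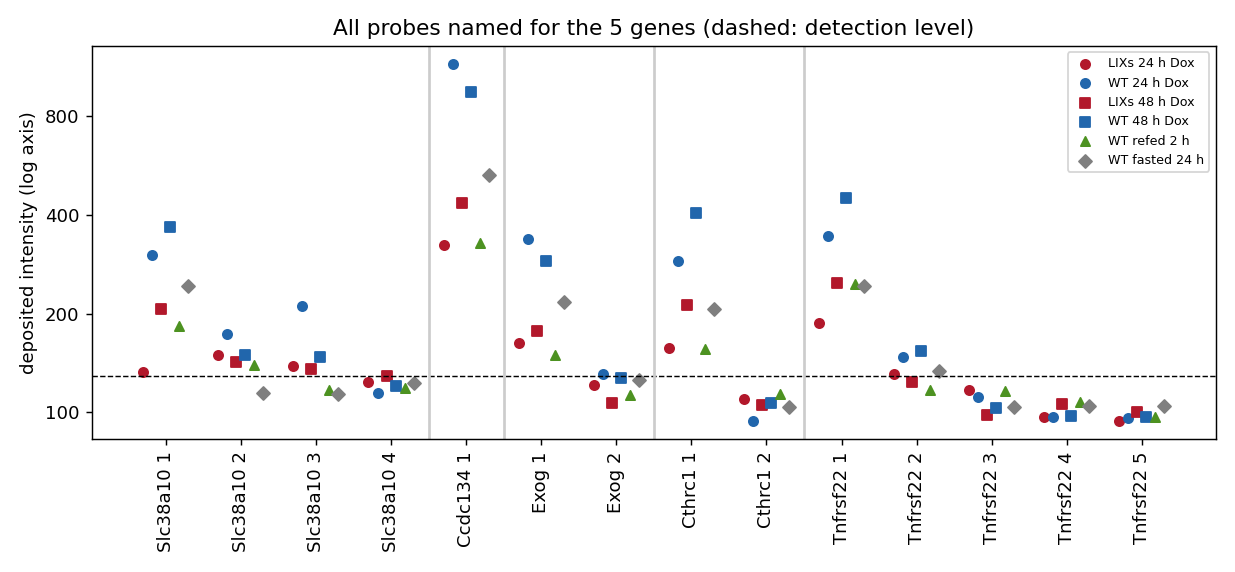
Deposited intensity (log axis) of all 14 probes of the 5 genes, numbered from the brightest in each gene, with 1 symbol per array and the detection level as a dashed line. Only the first probe of each gene lies above the line on all 6 arrays.

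The refed and fasted arrays were not used to choose the genes, and they show where the LIXs values lie among other WT livers. In 0 of the 5 genes were both LIXs arrays below all 4 WT arrays, a pattern that 7.66% of 10039 detected genes had. In all 5, both WT Dox arrays were above the other 4 arrays, which was so for 11.7% of detected genes. The second pattern was looked for after the values were seen, and its WT and LIXs Dox arrays are those that chose the genes. Of the 40 genes that were 2-fold lower at both times, 37 had it. Ccdc134 on the LIXs array at 24 h differed from the refed WT array by -0.03 on the log2 scale, and Cthrc1 by 0.02. Exog was higher by 0.30 on that LIXs array than on the refed array. Slc38a10 and Tnfrsf22 were lower there, by -1.19 and -0.71. At 48 h the LIXs array was above the refed array for each gene, by between 0.01 for Tnfrsf22 and 0.94 for Cthrc1. With 1 array per group these steps have no error of their own. The prior SD of the fit described below, 0.22 on the log2 scale, comes from the disagreement between 24 h and 48 h on the Dox arrays alone. It does not measure the spread of a step against the refed array. The steps of 0.03, 0.02 and 0.01 therefore have no error to be set against, and equal levels are not read from them.

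WT on Dox stood above refed WT by 2.18 at 24 h and 1.86 at 48 h for Ccdc134, by 2.11 and 1.80 for Exog, and by 1.66 and 2.32 for Cthrc1. For Slc38a10 it stood above by 1.21 and 1.60, and for Tnfrsf22 by 0.71 and 1.22. Against fasted WT, the same arrays were higher by between 0.47, for Slc38a10 at 24 h, and 1.47, for Cthrc1 at 48 h. These groups differ in Dox chow and in feeding together, which cannot be told apart. They also share the WT Dox arrays with the comparison that chose the genes.

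**Figure D4:**
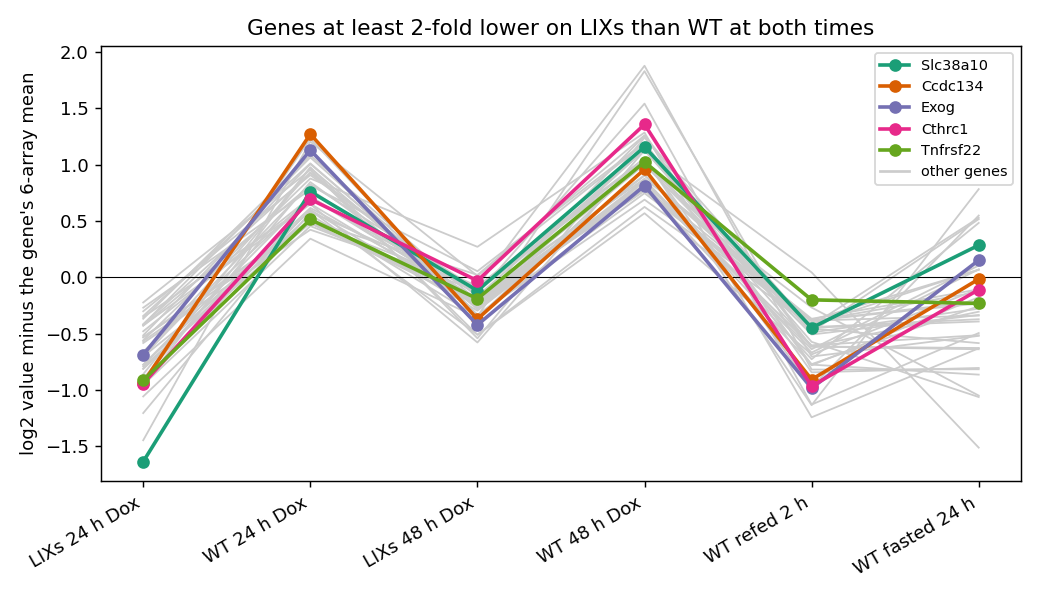
Log2 values of the 40 genes at least 2-fold lower on LIXs than WT at both times, each with its mean over the 6 arrays subtracted, by array. Coloured lines are the 5 genes and grey lines the other genes. The lines peak on both WT Dox arrays in 37 of 40 cases.

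Refed against fasted WT liver is the comparison of 2 arrays that played no part in the choice. There, 4 of the 5 genes were lower on the refed array, as were 53.8% of 8856 genes, and Tnfrsf22 differed by 0.03. Exog was lower by a log2 difference of -1.13, Ccdc134 by -0.89, Cthrc1 by -0.86 and Slc38a10 by -0.73. For Slc38a10 the direction rested on its brightest probe, since its second probe differed by 0.91 and the mean of all its probes by 0.02. At 2-fold, 1 of 5 was lower and 0 higher, against 11.9% and 12.3% of 8856 genes, so the 5 genes do not stand apart by this count. Their median was -0.86, against -0.09 over all genes. This comparison has no replicate and no test. Without background correction 0 of 5 reached 2-fold.

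Over time on Dox, LIXs at 48 h was higher than at 24 h for all 5 genes, by between 0.26 for Exog and 1.52 for Slc38a10, and 53.4% of 8001 genes were higher. The Dox arrays chose the genes by their lower LIXs signal, so this count is a description and no change over time is read from it. Slc38a10 was the 1 gene of the 5 past 2-fold, where 0.5% of genes were. That value rests on the 24 h reading near the detection level, and it was 0.64 without background correction and 0.36 with the mean of all probes. Exog turned to -0.09 with the mean of all probes. In WT, 48 h was higher than 24 h by 0.66 for Cthrc1, 0.51 for Tnfrsf22 and 0.40 for Slc38a10, and differed by -0.31 for both Ccdc134 and Exog. None of these 5 reached 2-fold, where 2.45% of 8071 genes were higher in WT.

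Across the 6 arrays the profiles of the 5 genes followed each other, with Pearson's r between 0.80 for Exog and Tnfrsf22 and 0.99 for Ccdc134 and Exog. The 4 Dox arrays chose the genes, so these values are a description. By root mean square difference of centred log2 values over 6 arrays, the genes closest to Ccdc134 were Rusc1 (0.17), C2cd5 (0.20) and the glycosyltransferase gene Glt8d1 (0.22). Glt8d1 (0.16) and Rusc1 (0.19) were also closest to Exog, followed by Plpp5 (0.22). Closest to Slc38a10 were Ica1 (0.31), Lmna, which encodes lamins A and C (0.33), and Scarf2 (0.33). Closest to Cthrc1 were Ehd4 (0.19), Tceal8 (0.24) and the spermidine synthase gene Srm (0.27). For Tnfrsf22 they were the zinc transporter gene Slc30a7 (0.14), H2-M3 (0.15) and Pramel12 (0.16). Pearson's r over the same arrays was between 0.94 and 0.99 for these pairs.

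Genes that share a family or pathway with the 5 were followed with limma's test of the LIXs difference averaged over both times. Of 7652 genes tested, 4.47% were lower and 4.33% higher at an adjusted p of 0.05, and 13 of 68 tested list genes passed, 11 lower and 2 higher. The calls are fragile. They numbered between 0 and 27 over the alternatives. With no time block and the 24 h LIXs array left out, 0 list genes passed limma's test, with 10 at an unadjusted p under 0.05. Without the LIXs array at 48 h the number was also 0, with 21 at an unadjusted p under 0.05.

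The SLC38 amino acid transporters went in both directions. Of 10 relatives of Slc38a10, 5 were tested, with a median of 0.60 against 0.01 over all genes. Slc38a5, a carrier of glutamine, asparagine and related amino acids, read 147 and 171 on LIXs, against 202 and 277 on WT at 24 h and 48 h. It fell by 1.13 ± 0.21 on the log2 scale (SE, limma adjusted p = 0.027). Slc38a3, the main glutamine carrier of hepatocytes known as SNAT3, read 2188 and 1911 on LIXs, against 1195 and 999 on WT. It rose by 0.97 ± 0.21 (adjusted p = 0.031). Slc38a2 and Slc38a4, the SNAT2 and SNAT4 carriers, differed by 0.61 ± 0.21 and 0.60 ± 0.21 (adjusted p = 0.089 and 0.094). Slc38a7 differed by -0.10 ± 0.23 (adjusted p = 0.815).

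Among GRP94 and its partners, the list that holds Ccdc134, 9 of 10 tested genes were below 0, 1 passed lower and 0 higher, and the median was -0.44. Hsp90b1, which encodes GRP94, read 3944 and 5444 on LIXs, against 6364 and 6201 on WT. Its averaged difference was -0.45 ± 0.23 (SE, limma adjusted p = 0.215). Syvn1, the ubiquitin ligase that degrades misfolded ER proteins, fell by 1.21 ± 0.25 (adjusted p = 0.030). Ostc and Stt3a, of the oligosaccharyltransferase that glycosylates proteins entering the ER, differed by -0.75 ± 0.23 and -0.89 ± 0.27 (adjusted p = 0.065 and 0.064).

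Mitochondrial DNA nucleases and repair genes had 2 of 11 tested relatives of Exog lower and 0 higher, with a median of -0.00. Fen1, the flap endonuclease of replication and repair, read 205 and 237 on LIXs, against 342 and 320 on WT. It fell by 0.90 ± 0.22 (limma adjusted p = 0.037). Ung, the glycosylase that removes uracil from DNA, fell by 0.88 ± 0.21 (adjusted p = 0.035). Both enzymes also act in the nucleus. Endog, the closest relative of Exog, had no named probe.

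Among collagen and matrix genes other than Cthrc1, 3 of 12 tested were below 0. Of the 12, 0 were lower and 1 higher, with a median of 0.14. Fn1, the fibronectin gene that hepatocytes express strongly, rose by 0.86 ± 0.21 (limma adjusted p = 0.036). The collagen genes Col1a1 and Col3a1 differed by 0.17 ± 0.25 and 0.09 ± 0.26 (adjusted p = 0.698 and 0.854), and both were dim, between 118 and 169 over the 6 arrays. Col1a2 was above the detection level on 2 arrays and was not tested. In the Wnt planar polarity list, tied to Cthrc1 through Wnt receptors in mice, 3 of 14 genes were tested and 1 was lower. That gene, the Wnt receptor Fzd5, read 304 and 381 on LIXs, against 705 and 615 on WT, and fell by 1.20 ± 0.24 (adjusted p = 0.027).

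In the TNF receptor family and TRAIL pathway, 0 of 11 tested genes passed in either direction, with a median of -0.03. Tnfrsf10b, the mouse death receptor for TRAIL, read 193 and 204 on LIXs, against 188 and 213 on WT, and its averaged difference was -0.02 ± 0.21 (limma adjusted p = 0.963). Tnfrsf23, the other TRAIL decoy receptor, and Tnfrsf26 flank Tnfrsf22 on chromosome 7. Neither rose above the detection level on any array.

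Of 16 tested Xbp1s targets of protein handling, all 16 had an averaged difference below 0. By the test 6 were lower, 0 were higher and 10 did not pass, against 4.47% lower and 4.33% higher of 7652 genes. The median of the 16 was -0.72. Hspa5, which encodes the ER chaperone BiP, differed by -0.26 at 24 h and 0.07 at 48 h (averaged -0.09, limma adjusted p = 0.815). Its probe was dim, between 180 and 240 over the 6 arrays, which limits what it can show. The direction of the 6 is opposite to the known action of Xbp1s and to the label of the arrays, and the cause was not tested. Kdelr3, which returns ER proteins from the Golgi, fell by 1.77 ± 0.24 (SE, limma adjusted p = 0.023), close in size to Ccdc134. Dnajc3, Sdf2l1, Srprb and Ssr1 differed by between -1.32 and -0.86 (adjusted p between 0.023 and 0.045), and each fell past the test.

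**Figure D5:**
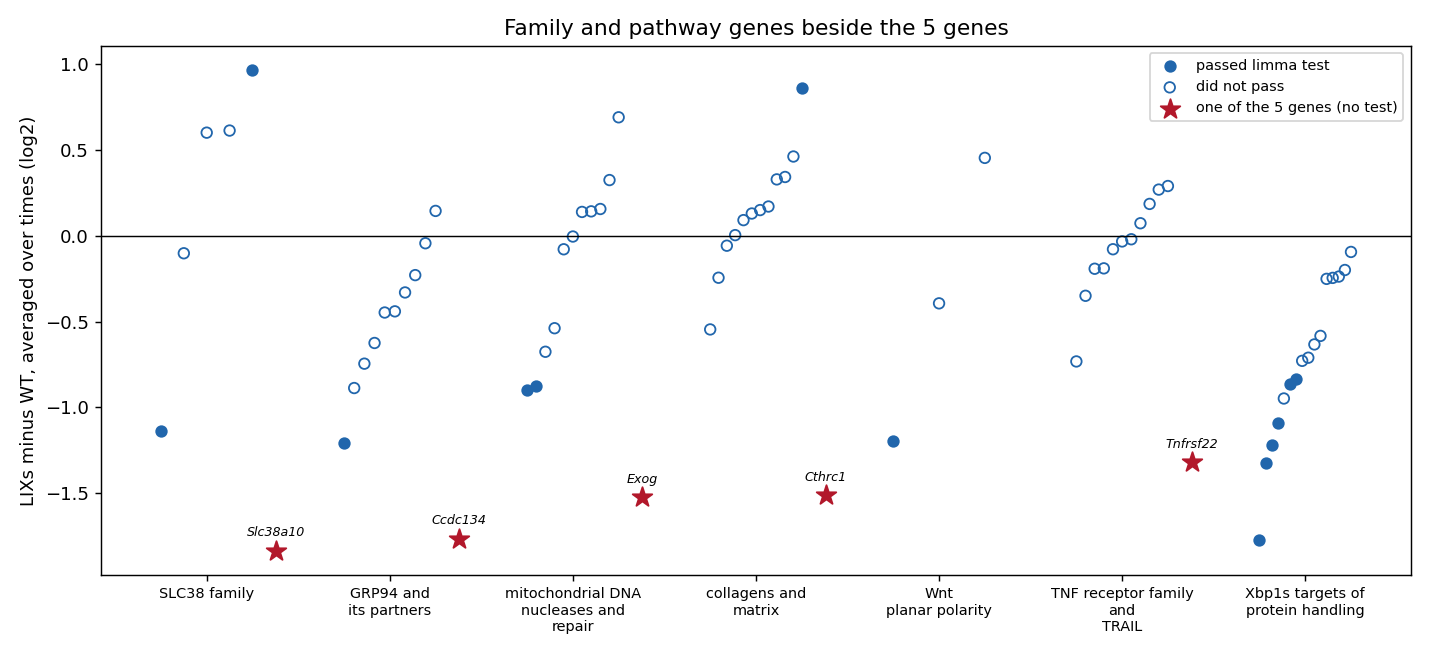
Averaged log2 difference between LIXs and WT for tested genes of 7 family and pathway lists, 1 circle per gene sorted within its list, filled where the gene passed the limma test, with the 5 genes as red stars that carry no test. Filled circles number 13, and 6 of them are Xbp1s targets of protein handling.

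Genes beside the 5 on their chromosomes were also read. Of the 10 genes that lie next to the 5 among those with a named probe, 7 were detected on at least 1 array, 5 were tested, and 0 passed. One place further out, Xylb, near Exog, rose by 0.89 (limma adjusted p = 0.035). Srebf2, the sterol regulator beside Ccdc134, differed by -0.12 averaged over both times (limma adjusted p = 0.848). Slc25a32, beside Cthrc1, differed by -0.27 (adjusted p = 0.433). Fzd6, on its other side, was detected on 1 array and was not tested. Ndufaf8 and Bahcc1, beside Slc38a10, differed by -0.13 and 0.33 (adjusted p = 0.731 and 0.329), and Acvr2b, beside Exog, by 0.20 (adjusted p = 0.588). Ccdc134 and Cthrc1 both lie on chromosome 15 and are not neighbours.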

How the data were processed

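Pooled liver RNA was measured on 6 Illumina arrays. The authors deposited a linear intensity for each of 45281 probes per array. Per the submitters' processing notes the software was GenomeStudio, whose version and normalization setting are unknown here. All arrays had a median near 113, and their sorted values lay within 0.0199 of each other on the log2 scale, so they were taken as normalized; background had not been removed. Another table, whose 6 signal columns carry names that fit no sample, was left out. Background was set at the mode of the log2 values (an intensity of 109), and its SD, 7.67, came from the lower side. These parameters entered normexp with an offset of 16, followed by quantile normalization in limma 3.58.1 (R 4.3.3). The detection level leaves a share of 0.01 of the background, mirrored on the log2 scale, above it. Of the probes 34885 have 1 gene name, 18 several and 10378 none. A gene is its brightest probe over the 6 arrays.

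The fit (lmFit, eBayes, Benjamini-Hochberg) used the 4 Dox arrays with time as a block, and a gene needed detection on at least 2 arrays. It has 1 residual degree of freedom, to which the prior adds 9.69, so an SE rests mostly on all genes together. That degree of freedom is how far the differences at 24 h and 48 h disagree. With no second array in any group, the fit measures neither the spread between arrays of a group nor that between animals. It was tested on simulated data. Differences of 2 arrays have no test, and the number of arrays limits all precision. A fold change over a low background depends on its subtraction. The 5 genes and all lists were chosen with earlier results of these data known. Genes named outside the 5 are list genes past the test, at most 5 per list by size, close family members, the 3 closest profiles per gene, and neighbours in rank or on the chromosome. Ostc, Stt3a, Tnfrsf10b, Hspa5, Xylb, Xbp1 and single marker genes were added after their values were seen. Alternatives were the background step, the offset, the detection level, the filter, the probe rule, the time block and leaving out 1 array.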

Additional observations from a re-analysis of the deposited data

Results flagged for a closer look

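Some values beside the 5 genes had opposite signs at 24 h and 48 h of Dox (LIXs minus WT), with 1 array per group and no test of the change. The median of the collagen and matrix genes was 0.38 at 24 h and -0.21 at 48 h, a change of -0.58. Within it, Col1a1 changed by -0.88 and Col3a1 by -0.95. The TNF receptor and TRAIL median, at 0.07 and -0.08, changed by -0.14. Slc38a7 was at 0.23 and -0.43, a change of -0.66. Srebf2, beside Ccdc134, was at 0.64 and -0.87, a change of -1.52. Ndufaf8, beside Slc38a10, was at -0.27 and 0.01, a change of 0.28. With 1 array per group, no array could be set against others of its own group. The LIXs array at 24 h stood apart from the other 5 in its acinar marker sum of 29665.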

How the results depend on the processing

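The 5 genes kept the sign of all 25 differences without background correction and with an offset of 50, where all 25 were smaller. With the mean of all probes per gene, 21 of 25 kept it. The 4 others were Slc38a10 (0.02 between refed and fasted, -0.26 between WT at 48 h and 24 h), Exog (-0.09 between LIXs at 48 h and 24 h) and Tnfrsf22 (-0.07 between refed and fasted). Without background correction 3 genes at 24 h, 1 at 48 h and 0 between refed and fasted WT reached 2-fold. With the mean of all probes these numbers were 2, 1 and 0, and 1 gene had both LIXs arrays below all WT arrays. With an offset of 50, 5 genes at 24 h, 4 at 48 h and 0 between refed and fasted WT reached 2-fold. Exog at 48 h was then at -0.97. Both WT Dox arrays stayed above the other 4 for all 5 genes under the background, offset, detection, filter and probe alternatives, a pattern chosen after seeing the data.

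The limma calls, 673 genes of which 13 in the lists, moved more. They numbered 1670 and 27 without background correction and 1281 and 24 with an offset of 50. They were 0 and 0 at a detection share of 0.05, without a filter on dim probes, with the mean of all probes and without the time block, where between 1810 and 2918 genes had an unadjusted p under 0.05. With 1 Dox array left out and no block, they ranged from 0, without the LIXs array at 24 h (638 genes at an unadjusted p under 0.05), to 287 genes, without the WT array at 48 h, and from 0 to 5 in the lists. Without the LIXs array at 48 h they were 23 and 0, and without the WT array at 24 h 247 and 5. The cause was not tested. The time block sets LIXs beside WT within 24 h and within 48 h in all these calls. Beyond it, no paired analysis was possible because each group has 1 array. Signals near the detection level limit what the dimmer probes can show.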
